A study of Mus musculus with 10 samples.

Results

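The normal visceral fat of the mouse was described from the 5 sham-operated samples of a series of 10 samples. The series set sham surgery against orthotopic KPC pancreatic tumors, and the members here are every sample labelled sham; the 5 tumor samples were not used. All 5 samples were visceral adipose tissue from wild-type C57BL/6 mice aged 10 weeks, and their titles end in gwat. The sham operation is therefore shared by all 5 and no unoperated fat is among them. The labels number the samples 1 to 5, called libraries 1 to 5 below, and do not state whether each came from a separate animal, so any spread between them may be technical. Their titles open with a number that is 1 for libraries 1 and 2, 2 for libraries 3 and 4, and 4 for library 5, whose meaning the labels do not give. The labels give no sex.

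White fat stores triglyceride in large fat cells and releases it as fatty acids when the animal needs fuel. Insulin favours storage: glucose is turned into fatty acids by an enzyme chain that runs from ATP citrate lyase (Acly) through acetyl-CoA carboxylase (Acaca) and fatty acid synthase (Fasn) to the desaturase Scd1. Noradrenaline favours release, through adipose triglyceride lipase (Pnpla2) and hormone-sensitive lipase (Lipe). The fat cells also secrete hormones, among them adiponectin (Adipoq), leptin (Lep) and resistin (Retn). Around them lie vessels, macrophages, matrix-forming progenitors and, on the surface of a visceral depot, mesothelium.

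Levels are given as TPM, a share of all transcripts scaled to the same total in each library, which correct for gene length to allow comparison between genes. Some genes rank differently by TPM and by normalized counts, as given below. Spread is given on log2(normalized count + 1), which follows library size through the median gene and can be compared between libraries. The 2 scales are not parallel: for a gene with an unchanged normalized count, TPM in library 1 was 0.891 of the mean over the 5 libraries and in library 3 it was 1.06 of it (median over 10999 genes). The normalized counts of a library summed to between 21933000 and 24449900, library 1 being the highest. A TPM of at least 1 was listed for 12490 ± 205 genes per library (SD, n = 5) and for 11591 genes in all 5 libraries. In all 5, 6064 genes reached 10, 894 reached 100 and 58 reached 1000, while 10212 of the 29242 listed genes were at 0 throughout.

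The tissue was fat by its markers. Fabp4, the fatty acid-binding protein of fat cells, was listed at 24181, 16877, 15596, 16969 and 16584 TPM in libraries 1 to 5. Car3, a carbonic anhydrase abundant in fat, was at 19300, 16815, 17410, 16854 and 17337 TPM. Cfd, the complement protease adipsin, was at 8508, 13990, 12712, 9163 and 11116 TPM. Library 1 stood above the other 4 for Fabp4, and no library was low for all 3 genes. Adipoq averaged 4290 ± 559 TPM and Lpl, the lipase that frees fatty acids from circulating lipoproteins, 3453 ± 523 TPM (SD, n = 5). None of these 5 markers differed by as much as 1 log2 between its highest and lowest library.

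Most of the messenger RNA signal lay in few genes. The 20 genes with the highest mean held 36.7% of all listed TPM, the 100 highest held 50.5% and the 1000 highest held 76.8%. All 13 protein genes of the mitochondrial chromosome were among the 20 highest. They were led by mt-Atp8 at 79176 ± 9759 TPM (SD, n = 5), a short gene at positions 7766 to 7969 whose end overlaps the start of mt-Atp6 at 7927, so the reads of the pair cannot be fully told apart. The lead of mt-Atp8 rests on the length correction in TPM. In normalized counts it averaged 46918.5, below mt-Atp6 at 206908 and mt-Co1 at 639463. The 7 nuclear genes were Fabp4, Car3, Cfd, Scd1, Dbi, Gsn and Adipoq. Dbi, an acyl-CoA-binding protein, averaged 4924 ± 540 TPM, and Gsn, the actin-severing protein gelsolin, 4354 ± 1210 TPM with its lowest value, 2522, in library 1.

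**Figure D1:**
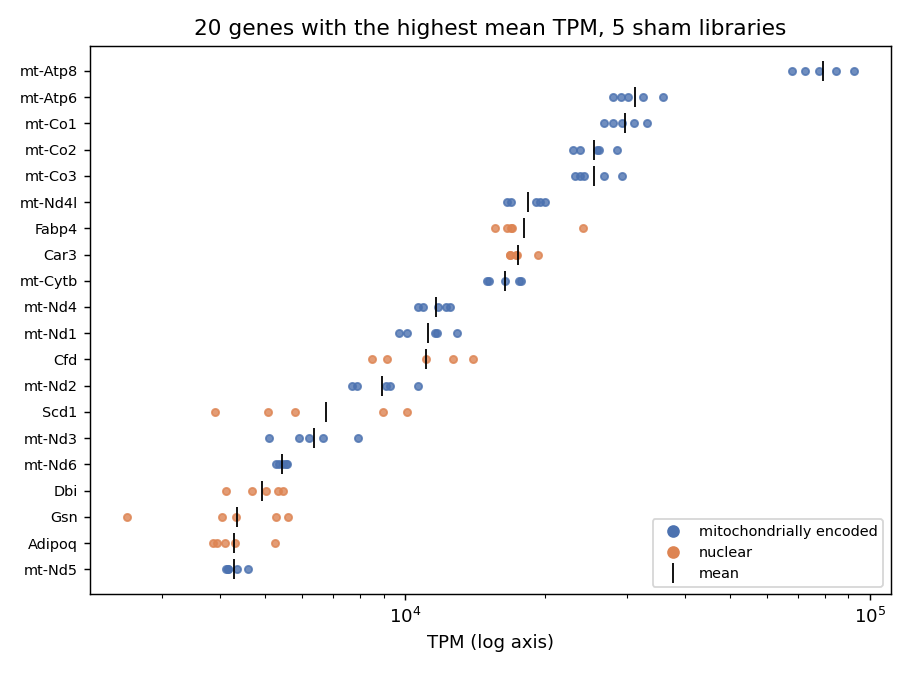
TPM (log axis) of the 20 genes with the highest mean, one point per library and a tick at the mean of 5. The mitochondrially encoded genes are shown in blue and the 7 nuclear genes in orange; among the nuclear genes Scd1 has the widest fold range, from 3901 to 10087 TPM.

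By class, mitochondrially encoded genes held 29.5 ± 2.81% of listed TPM (SD, n = 5), with 33.3% in library 1 and 26.5% in library 3 as extremes. A set of 242 genes of fat cell function held 12.9 ± 1.07%, the 90 cytosolic ribosomal protein genes 5.98 ± 0.859% and 92 nuclear genes of the respiratory chain 3.43 ± 0.231%. Matrix genes held 1.36 ± 0.318%, a class whose most abundant member is Gsn and in which collagens held 0.231 ± 0.0732%. Antigen presentation, antibody and complement genes (without Cfd) held 1.22 ± 0.129%, and red cell genes 0.998 ± 0.402%. The smallest class, smooth and skeletal muscle, was also the one with the largest relative spread, at 0.402 ± 0.447%. All other genes held 44.2%. Library 1 had the largest mitochondrial and fat cell shares and the smallest ribosomal share, 4.62%, against 5.89% to 6.86% in the other 4. The order of the classes rests on TPM: of normalized counts, which are not divided by length, the mitochondrial genes made up 9.55%.

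**Figure D2:**
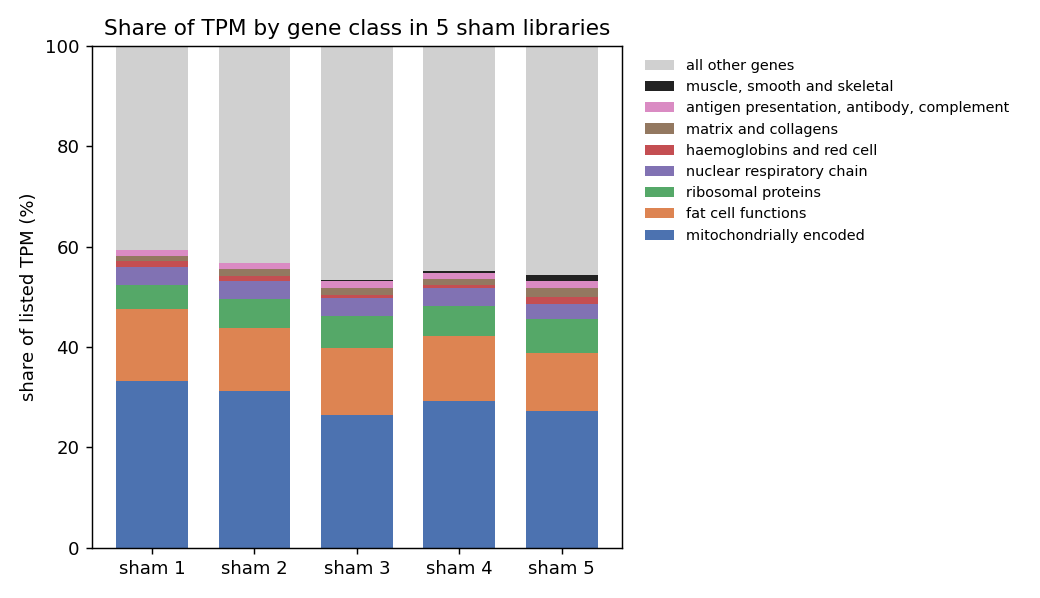
Share of listed TPM (%) by gene class in each of the 5 sham libraries, with each gene counted in 1 class only. The mitochondrial share runs from 26.5% to 33.3% and the muscle share from 0.0955% in library 1 to 1.17% in library 5.

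Protein-coding genes made up 97.5 ± 0.213% of listed TPM, and processed pseudogenes, which share sequence with their parent genes, 1.80 ± 0.208%. One of them, Gm14303, was listed at 1885 ± 417 TPM, above most ribosomal protein genes. That rank holds in TPM only: Gm14303 averaged 443 normalized counts, beside a median of 5410 for the ribosomal protein list. Reads of such copies and of their parents may have been split between them.

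Among the fat hormones, Retn averaged 4009 ± 678 TPM, Apoe, the lipoprotein that fat cells and macrophages both make, 3559 ± 1098, and Lep 277 ± 61.1 (SD, n = 5). Lep was at 238, 192, 315, 343 and 298 TPM. Rbp4, the carrier of retinol, was highest in library 1 at 1403 TPM and lowest in library 5 at 692, and Hp, haptoglobin, went the other way, from 512 in library 1 to 1454 in library 5. Nnat, a small membrane proteolipid, was at 126 TPM in library 1 and between 669 and 769 in the other 4. Across the transcriptome, 3337 of the 14158 genes measured at a mean of 10 or more normalized counts, or 23.6%, had a highest and a lowest library at least 1 log2 apart; these are called variable. That share is the background for the counts below and depended on the setting: it was 11.4% on log2(TPM + 1) and 11.2% among genes averaging 100 or more. It also depended on level, at 66.9% for genes averaging 10 to 100 normalized counts, 13.6% from 100 to 1000 and 7.4% above that. Of the 23 measured genes of secreted fat proteins 11 were variable, but without library 1 only 3 were.

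Among the genes of storage and release, Cd36, the fatty acid transporter, averaged 1647 ± 75.3 TPM and differed by 0.23 log2 between extremes. Cidec, which fuses lipid droplets, averaged 2617 ± 420 TPM, and Plin1, which coats them, 132 ± 12.9. Pnpla2 was at 1526 ± 207 TPM, Lipe at 697 ± 66.2, its partner monoglyceride lipase Mgll at 539 ± 36.1 and the brake on Pnpla2, G0s2, at 578 ± 47.9. None of these 7 genes was variable, although Cidec spanned 0.77 and Pnpla2 0.69 log2. Triglyceride assembly had 6 of 18 variable genes, lipid droplet proteins 5 of 16 (3 without library 1) and lipolysis 6 of 20 (30% beside 23.6% of all genes), the last led by Adrb1, a receptor for noradrenaline, which was low at 0.901 ± 0.329 TPM. The beta-3 receptor Adrb3, at 251 ± 38.6 TPM, was far more abundant. Fat cell transcription factors were led by Cebpa at 478 ± 52.1 TPM, followed by Srebf1 at 143 ± 26.4 and Pparg at 91.3 ± 17.4. The insulin-dependent glucose carrier Slc2a4 was at 143 ± 22.9 TPM. Gpam, a mitochondrial acyltransferase that starts triglyceride assembly, was listed at 0.618 ± 0.0757 TPM. So low a value can be a failed estimate, which was not tested. The last enzyme, Dgat2, was at 1521 ± 497 TPM.

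Fatty acid synthesis was the fat cell function whose list mean differed most between libraries. The mean deviation of its genes from their own 5-library means spanned 1.62 log2. By other measures thermogenic genes, described below, differed more. Of them 78.6% were variable, beside 68.2% for synthesis, and their median SD was 0.733 beside 0.603 log2. Without library 5, 10 of 14 thermogenic genes were variable, beside 6 of 22 synthesis genes. Fasn was at 1210, 432, 737, 870 and 169 TPM in libraries 1 to 5. Acly was at 904, 616, 998, 834 and 126 TPM. Elovl6, which lengthens the fatty acids that Fasn makes, was at 156, 67.4, 101, 134 and 16.3 TPM. In each of the 3 genes library 5 was the lowest and library 1 or 3 the highest. Me1, the malic enzyme that supplies NADPH, ran from 1493 TPM in library 1 to 210 in library 5, and Thrsp, a fat-inducible protein tied to lipid synthesis, from 2361 to 371. Scd1, the most abundant of the chain, was at 10087, 5788, 5084, 8967 and 3901 TPM.

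Of the 22 measured genes of the list 15 were variable, 68.2% beside 23.6% of all genes, and 1 was steady. The highest library was library 1 for 19 of the 22 and the lowest was library 5 for 17. Without library 5 only 6 of the 22 were variable, so the count rests on that library. Among the 7 that were not variable, the desaturase Fads1, at 49.4 ± 1.85 TPM, spanned 0.24 log2, Fads2 0.42, Elovl5 0.52 and Elovl1 0.55. The regulator Srebf1 spanned 0.93 log2 and Mlxipl, which responds to glucose, 1.32. Library 5 was also the lowest for Pcx, which feeds citrate formation (468, 308, 390, 376 and 81.4 TPM), for Gpd1, which makes the glycerol backbone (749, 405, 540, 448 and 139 TPM), and for Agpat2 (984, 580, 469, 593 and 253 TPM). In cholesterol synthesis 14 of 24 genes were variable (58.3%), with 19 highest in library 1 and 16 lowest in library 5; the count was 8 without library 1 and 6 without library 5. Citrate cycle and branched-chain amino acid genes leaned the same way, 22 of 27 being highest in library 1 and 22 lowest in library 5, but only 2 of them were variable, 1 without library 1 and 0 without library 5. Library 5 was also the library with the most muscle and matrix signal, described next. In bulk tissue fewer cells of a type and less RNA per cell cannot be told apart, and the part of muscle and matrix in the lower synthesis genes was not tested.

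**Figure D3:**
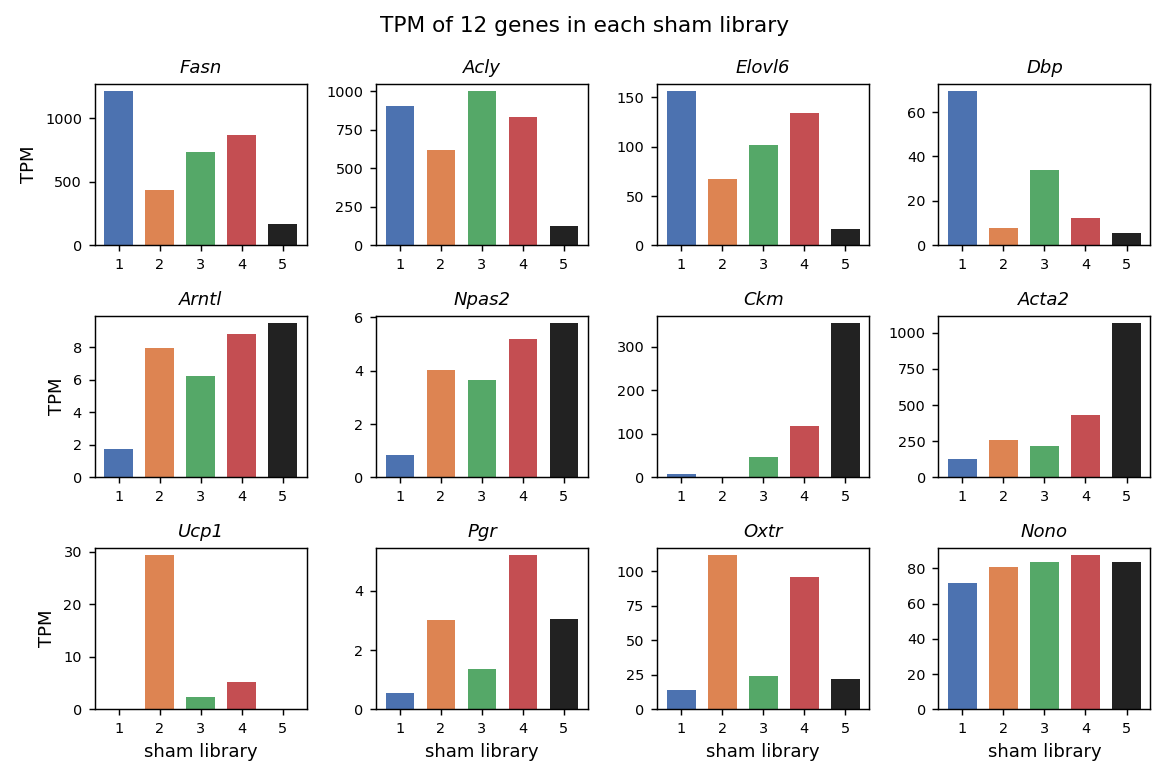
TPM of 12 genes (axes from 0, each its own scale) in sham libraries 1 to 5. Fasn, Acly and Elovl6 are lowest in library 5, Dbp is highest and Arntl and Npas2 lowest in library 1, Ckm and Acta2 are highest in library 5, Ucp1 and Oxtr are highest in library 2, and Nono is nearly level.

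The widest spread belonged to skeletal muscle genes. Ckm, the muscle creatine kinase, was at 7.54, 1.82, 46.0, 117 and 354 TPM in libraries 1 to 5. Acta1, skeletal muscle actin, was at 37.0, 24.8, 140, 416 and 1270 TPM. Myh4, a fast myosin heavy chain, was at 5.38, 0.493, 29.6, 70.3 and 239 TPM. The libraries took the same order in these 3 genes, 2 lowest, then 1, 3, 4 and 5. All 18 genes of the list were variable, with ranges from 3.13 to 9.77 log2; library 5 was the highest for all 18, and library 2 the lowest for 13 and library 1 for 5. Their summed share of TPM was 0.0145% in library 2 and 0.670% in library 5. All 18 stayed variable without any 1 library, while the mean share, 0.208%, was 0.0919% without library 5.

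Promoters of muscle genes often hold the E-box CAGCTG, a site type that myogenic factors can bind, and the sequences of 2 members that the muscle result turns on are shown with each CAGCTG in capitals. They are the 250 bases before the annotated start, from RefSeq on GRCm38.p6, 5′ to 3′ on the strand of the gene. Acta1 is on the minus strand at chr8:123894776-123895025, and Myh4 on the plus strand at chr11:67237562-67237811.
Acta1: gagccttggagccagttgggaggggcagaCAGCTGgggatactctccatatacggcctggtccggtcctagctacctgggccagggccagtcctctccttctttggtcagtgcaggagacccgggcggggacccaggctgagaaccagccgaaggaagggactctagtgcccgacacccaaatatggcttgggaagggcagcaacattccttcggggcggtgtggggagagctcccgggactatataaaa
Myh4: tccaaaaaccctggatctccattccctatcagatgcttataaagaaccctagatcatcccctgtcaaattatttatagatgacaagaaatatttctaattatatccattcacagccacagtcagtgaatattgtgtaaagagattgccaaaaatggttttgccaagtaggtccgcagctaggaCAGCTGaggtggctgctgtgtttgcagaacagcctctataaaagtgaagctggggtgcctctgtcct
The match begins 221 bases before the start in Acta1 and 67 bases before it in Myh4. Over the list, 9 of the 18 promoters found for 14 of its genes held CAGCTG, which reads the same on both strands, or 50%, beside 13% of 32851 promoters in the table. A match is a description of these letters only.

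Smooth muscle genes were also highest in library 5. Acta2, smooth muscle actin, was at 129, 255, 215, 429 and 1065 TPM, and Actg2, the enteric smooth muscle actin, at 52.0, 165, 60.8, 244 and 993 TPM. In both genes libraries 4 and 5 were the 2 highest and library 1 the lowest. Of the 15 smooth muscle and pericyte markers 10 were variable (66.7%), 13 were highest in library 5 and 10 lowest in library 1; without library 5, 6 were variable. The pericyte markers Rgs5, at 79.0 ± 11.6 TPM, and Notch3, at 8.59 ± 0.917, were not variable: Rgs5 was highest in library 1, and Notch3, highest in library 5, spanned 0.22 log2.

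Matrix genes followed in smaller steps. Col3a1, a fibrillar collagen, was at 516, 525, 438, 523 and 1043 TPM, and Col1a1 at 68.1, 101, 82.4, 110 and 269 TPM. Library 5 was the highest in both, and the other 4 lay close together. Of 33 measured collagen genes 20 were variable (60.6% beside 23.6% of all genes) and 24 were highest in library 5; without that library 9 were variable. Basement membrane collagens moved less, Col4a1 spanning 0.61 log2 and Col15a1, at 214 ± 19.5 TPM, 0.20 log2. Of 15 progenitor and fibroblast markers 12 were highest in library 5 and 5 were variable (33.3% beside 23.6% of all genes), 1 without library 5 and 3 without library 1; Pdgfra, the receptor that marks fat progenitors, ran from 7.70 TPM in library 1 to 25.8 in library 5.

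Mesothelial markers, of the cells that line the depot, were lowest in library 1. All 14 measured markers were lowest in library 1, and 10 were highest in library 5 and 4 in library 4. Upk3b was at 38.4, 60.0, 68.8, 80.2 and 83.2 TPM, and Krt19, a keratin, at 19.3, 46.7, 41.1, 53.9 and 53.2 TPM. In both genes library 1 was the lowest and library 4 or 5 the highest. Of the 14, 10 were variable (71.4%), but 2 without library 1 and 6 without library 5.

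**Figure D4:**
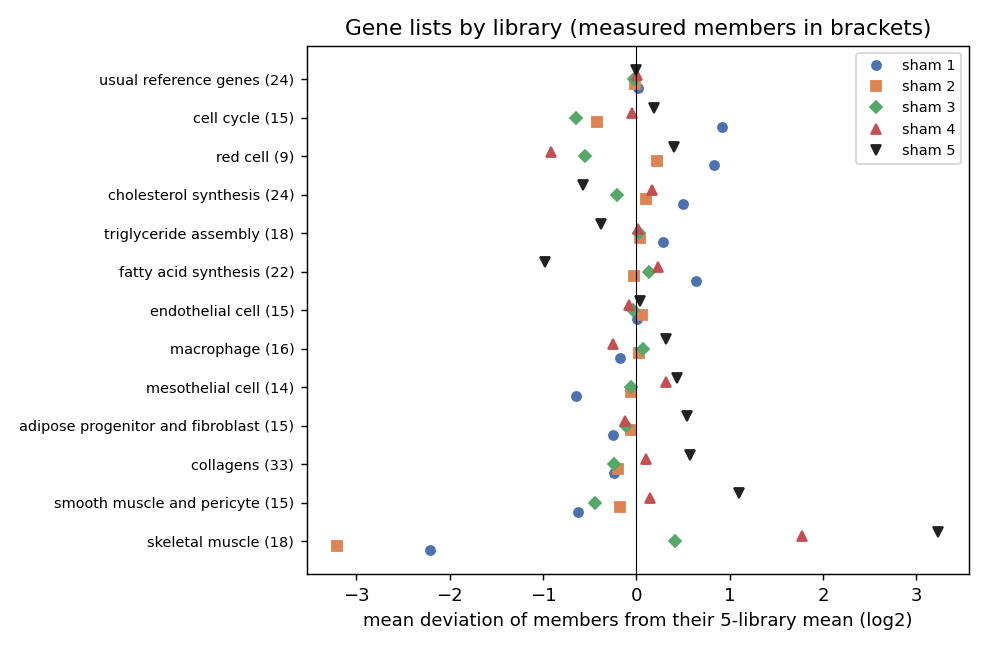
Mean deviation (log2) of the measured members of 13 gene lists from their own 5-library mean, one symbol per library. Skeletal muscle spreads from -3.21 in library 2 to 3.24 in library 5, fatty acid synthesis from -0.98 in library 5 to 0.64 in library 1, while endothelial and reference genes lie near 0 in all 5.

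Endothelial genes, by contrast, were level as a list, their mean deviation spanning 0.14 log2. Pecam1, an adhesion molecule of endothelium, was at 78.8, 86.1, 92.1, 85.8 and 99.8 TPM, a span of 0.22 log2 in normalized counts. Cdh5, the endothelial cadherin, spanned 0.16 log2 and Tie1, a receptor of the angiopoietin system, 0.13. A gene is called steady when its highest and lowest library lie at most 0.25 log2 apart. This held for 2094 genes or 14.8% of those measured, and for 3650 without library 1 or 3550 without library 5. Of the 15 endothelial markers 7 were steady, beside 27.8% of all genes averaging 1000 or more. The list's median was 1987 normalized counts. Its variable share, 6.67%, was near the 7.4% of all genes at that level. The 1 variable marker was Vwf, at 30.8, 35.2, 21.0, 22.4 and 44.9 TPM, and without library 5 it was not. Lymphatic markers differed more: Ccl21a, a chemokine of lymphatic vessels and lymph node stroma, was at 122 TPM in library 5 and between 23.3 and 54.1 in the other 4.

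Macrophage markers summed to 0.142% of TPM. Lyz2, lysozyme, was at 494 ± 107 TPM, the complement chains C1qa, C1qb and C1qc at 203 ± 35.2, 164 ± 26.8 and 150 ± 26.5, and Folr2, a marker of resident macrophages, at 95.8 ± 24.4 (SD, n = 5). None of the 16 macrophage markers was variable, although 13 of them were highest in library 5 and 10 lowest in library 4. Their median was 1209 normalized counts, a level at which only 7.4% of all genes were variable, so the count is near that share. The mean deviation of the list spanned 0.57 log2. On log2(TPM + 1) 2 of the 16 were variable. Trem2, a receptor of lipid-associated macrophages, was at 30.6 and 31.5 TPM in libraries 2 and 4 and between 8.44 and 18.2 in the other 3. Retnla, a secreted product of alternatively activated macrophages, was at 538, 821, 1447, 1004 and 1465 TPM, and Il33, an alarmin of stromal cells, between 8.10 and 13.9 TPM.

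T cell markers summed to between 0.00136% and 0.00172% of TPM, with Trbc2 the highest at 3.48 ± 0.578 TPM. Markers of natural killer and cytotoxic cells summed to between 0.00119% and 0.00213%, and Prf1 was listed at 0 in all 5 libraries. Those of group 2 innate lymphoid cells summed to between 0.00107% and 0.00151%. Antibody chains held more, 0.197% of TPM in sum: Igkc was at 595, 542, 436, 414 and 233 TPM and Ighm at 323, 345, 503, 445 and 183 TPM. Library 5 was lowest in both. Of 70 measured immunoglobulin chains 66 were variable, 31 being highest in library 1 and 34 lowest in library 5. The median chain had 25.8 normalized counts, a level at which 66.9% of all genes were variable. Ighg3 was at 44.2, 10.1, 10.3, 84.5 and 0.135 TPM. These segments resemble each other, so single-gene values are uncertain.

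Red cell genes split the libraries differently. Hbb-bs, adult beta globin, was at 5420, 4318, 2698, 2063 and 5551 TPM, and Alas2, which starts haem synthesis in red cells, at 38.9, 27.8, 15.8, 12.7 and 36.0 TPM. Libraries 1, 2 and 5 were high and libraries 3 and 4 low in both. Of 9 measured genes 8 were variable (88.9%); the exception, Fech, at 21.3 ± 2.52 TPM, is made in other cells too. Hba-a1 and Hba-a2 are near-identical copies and their split is uncertain.

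Clock genes stood apart mainly in library 1. Dbp, an output of the clock, was at 69.3, 7.85, 34.0, 12.3 and 5.57 TPM. Arntl, which drives the loop with Clock, was at 1.77, 7.98, 6.25, 8.81 and 9.47 TPM, and its relative Npas2 at 0.845, 4.01, 3.65, 5.19 and 5.77 TPM. Library 1 was highest for Dbp and lowest for Arntl and Npas2, and library 3 came second in the same direction. Ciart, a repressor, was highest in library 1 at 2.36 TPM against 0.143 to 0.770, and so was Per3 at 9.07 against 2.60 to 7.25. Of the 18 clock genes 14 were variable, 77.8% beside 23.6%; 8 were without library 1. Clock itself spanned 0.51 log2. The labels used here give no time of collection.

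The CACGTG E-box is the site that Arntl and its partners bind, and 2 clock promoters are shown with it in capitals, over the same 250 bases and from the same RefSeq build. Both pairs of sequences were chosen because they hold their motif. Per1, on the plus strand at chr11:69098699-69098948 (1 of its 2 promoters in the table), holds 1 match, and Ciart, on the minus strand at chr3:95882229-95882478, holds 3.
Per1: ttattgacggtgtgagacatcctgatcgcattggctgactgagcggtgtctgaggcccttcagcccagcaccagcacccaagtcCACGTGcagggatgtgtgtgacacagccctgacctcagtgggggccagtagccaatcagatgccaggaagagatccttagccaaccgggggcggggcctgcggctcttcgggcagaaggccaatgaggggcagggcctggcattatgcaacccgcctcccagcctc
Ciart: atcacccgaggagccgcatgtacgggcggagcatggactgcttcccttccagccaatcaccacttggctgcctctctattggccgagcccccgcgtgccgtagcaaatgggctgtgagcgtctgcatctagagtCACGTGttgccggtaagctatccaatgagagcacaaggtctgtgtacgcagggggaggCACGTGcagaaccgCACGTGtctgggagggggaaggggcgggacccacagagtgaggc
Of 20 promoters found for 15 clock genes, 6 held CACGTG, or 30%, beside 6.02% of all promoters; CAGCTG was in 2 of the 20 and CACGTG in 0 of the 18 muscle promoters. Per1 itself was at 21.8, 10.9, 21.3, 13.7 and 11.6 TPM, highest in libraries 1 and 3.

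The brown fat gene Ucp1, which uncouples respiration to make heat, had the widest range of any fat cell gene: 0.103, 29.3, 2.36, 5.16 and 0.0341 TPM. Cidea, a droplet protein of brown and beige cells, was at 4.73, 24.3, 8.92, 13.6 and 2.38 TPM, in the order 2, 4, 3, 1 and 5 for both genes. Of 14 measured thermogenic genes 11 were variable, 78.6% beside 23.6% of all genes, and 9 to 11 when 1 library was left out. The brown fat selectors Zic1 and Lhx8 were listed at or near 0, Zic1 reaching 0.0174 TPM.

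Of 15 cell cycle genes 13 were highest in library 1. Of them 10 were variable, or 66.7%, beside 66.9% of all genes at a mean of 10 to 100, the list's median being 88.1; Top2a was at 5.01 TPM there and between 1.15 and 2.51 elsewhere, and Mki67 at 1.47 and between 0.328 and 1.01. Fos, an early response factor, was at 11.6, 29.2, 9.94, 10.4 and 100 TPM, while Egr2, another, was at 18.3, 3.88, 1.78, 3.38 and 2.18. Fos peaked in library 5 and Egr2 in library 1. Of 21 early response genes 10 were variable, 47.6% beside 23.6% of all genes, with 11 highest in library 1 and 6 in library 5. Major urinary protein genes, a cluster of near-identical copies, were variable in 13 of 13 cases with 10 highest in library 1, and in 6 without it. Their median was 61.8 normalized counts, where 66.9% of all genes were variable; the highest, Mup11, ran from 36.7 to 77.8 TPM.

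Over the 1236 variable genes averaging 100 normalized counts or more, library 5 was the highest for 569 and library 1 the lowest for 548, so the 2 libraries carried most extremes. The share of steady genes was larger at higher levels, from 0.7% at a mean of 10 to 100 through 13.2% to 27.8% at 1000 or more. Pearson correlations across genes between libraries ran from 0.924, for libraries 1 and 5, to 0.967, for libraries 3 and 4; genes are not independent replicates. The same 2 pairs gave 0.934 and 0.973 without the skeletal muscle list and the 54 genes at 0 in 1 library or more and at 100 or more in another.

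Ranked by SD among genes with a mean of at least 100, 12 of the 15 most variable had a library listed at 0. Akap13, an anchoring protein, was at 0, 0, 2.07, 2.10 and 1.08 TPM, Tyrobp, an adaptor of myeloid receptors, at 0, 0, 37.8, 16.6 and 45.7, and Ndst1 at 5.08, 0, 3.36, 5.23 and 4.92. Such a 0 can be a failed estimate, and Lyz2, Csf1r and C1qa of the same myeloid cells were not at 0 in libraries 1 and 2: Csf1r was at 29.0 and 46.9 TPM there. In all, 54 genes were at 0 in at least 1 library and at 100 normalized counts or more in another. With such genes set aside the most variable were Ucp1, Myh4, Ighg3, Mybpc1, Actn2 and Pvalb, and 5 of the top 15 were in the skeletal muscle list.

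At the other end were Ccny, a cyclin (SD 0.010 log2), Sumo2, a ubiquitin-like modifier (0.012), Scamp2 (0.012) and Dnajc21 (0.015), followed by Dusp3, Adgra3, Gcn1, Thap12, Abcf1, Slc36a4, Ranbp2, Aldh3a2, Sel1l, Ctbp2 and M6pr. Sumo2 was at 218, 244, 262, 260 and 259 TPM; its highest and lowest normalized counts differed by 2.16%. All 15 had the lowest TPM in library 1, and all 15 had an SD below the counting noise expected at their mean, so their order among themselves carries no information. Among 24 usual reference genes, Nono was the steadiest (SD 0.03 log2), with Ipo8 (0.08) and B2m (0.09). These 3 of 24 were the steady ones, beside 14.8% of all genes and 27.8% of genes averaging 1000 or more. The list's median was 5325 normalized counts, so as a list they were not steady more often than other genes of their level. Actb had an SD of 0.13, Ppia 0.12, Rplp0 0.14, Hprt 0.14, Tbp 0.15 and Gapdh 0.28 log2. Tfrc, the iron importer, was the only variable one, from 5.13 to 11.3 TPM, and was not without library 1.

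**Figure D5:**
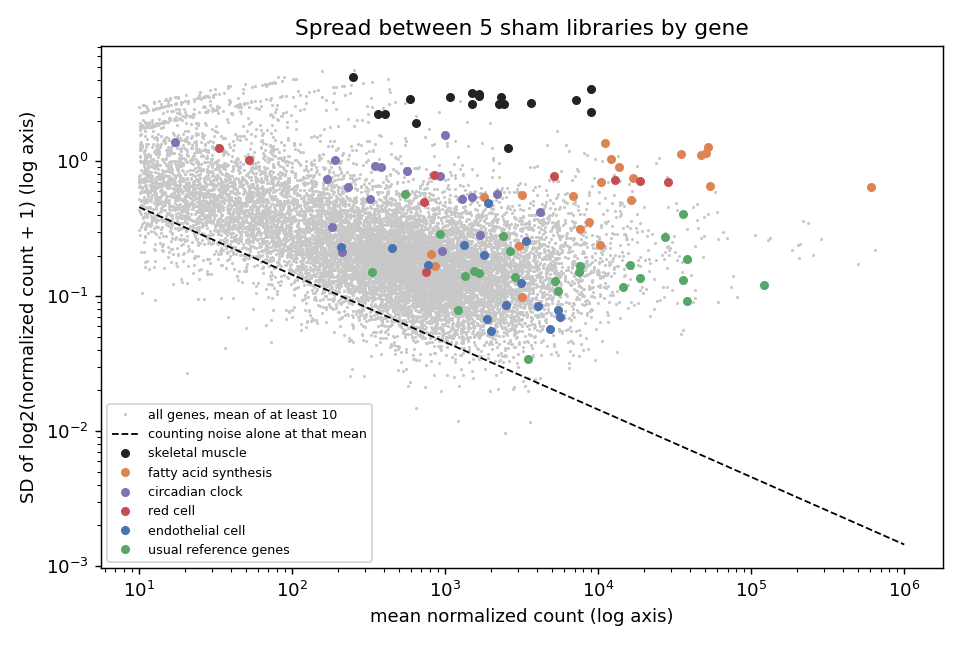
SD of log2(normalized count + 1) over the 5 libraries against the mean normalized count (both log axes), 1 point per gene with a mean of at least 10; the dashed line is the SD from counting alone. All 18 skeletal muscle genes lie above the bulk of genes of the same mean, most fatty acid synthesis genes lie high at large means, and most endothelial and reference genes lie low or within the bulk.

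Markers of neighbouring organs were listed at 0 or low on the whole. A mean TPM above 0 was listed for 6 of 14 pancreatic markers. The same held for 8 of 13 of epididymis and testis and 9 of 12 of mammary and other epithelium. The 3 lists summed to 0.00180%, 0.000710% and 0.000347% of TPM. A listed 0 can be a failed estimate and does not show absence. Of the pancreatic list Prss2, Pnlip, Ins1, Ins2, Amy2a5, Clps, Try4 and Cela2a were listed at 0 in all 5 libraries, and Cela1, at 16.5 ± 4.42 TPM, was the only member measured. The sperm genes Prm1, Prm2 and Tnp1 and the epididymal Lcn9 and Adam7 were at 0 throughout, and Star, of steroid synthesis, averaged 2.45 ± 0.392 TPM. Epcam and the milk genes Wap and Csn2 were at 0 in every library.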

How the data were processed

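Visceral fat RNA was profiled by RNA sequencing; the 5 sham samples are described here. Per the labels' protocols, tissue was flash frozen, RNA was taken with a Qiagen RNeasy kit and libraries were made at a service provider. The submitters' processing notes name Salmon, DESeq and DESeq2 as tools and mm10 as build. Their versions, the annotation and whether counting used strand are not stated in these sources. The authors deposited TPM values, a length-corrected level, and a second table of normalized counts, a signal divided by size factors over all 10 libraries, which are not whole reads. Listed genes summed to 92.3% to 93.4% of 1000000 TPM, and shares use the listed total. Size factors recomputed from the 5 libraries alone lay between 0.996 and 1.01, and library depth in reads is unknown.

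Computation used Python 3.11.15, pandas 2.3.3 and numpy 2.4.6. Spread is the SD and range of log2(normalized count + 1) over 5 libraries for genes averaging 10 or more; variable means a range of at least 1 and steady at most 0.25. There is 1 group, so no comparison between groups was tested. All gene identifiers matched the GENCODE vM21 annotation; positions and biotypes are from it.

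Named genes are the 20 with the highest mean TPM, the 15 with the highest and the 15 with the lowest SD among genes averaging 100 or more without a model name, and of each list the 4 highest by mean TPM and those of largest and smallest SD, plus a fixed set of fat and reference genes and markers at 0 in all libraries. The others were named after their values were seen: Acaca, Actn2, Alas2, Arntl, Ciart, Cidea, Ckm, Clock, Csf1r, Egr2, Elovl1, Elovl5, Fads2, Folr2, Fos, Gm14303, Gpam, Gpd1, Greb1, Ipo8, Mki67, Mlxipl, Mmd2, Mybpc1, Nnat, Npas2, Oxtr, Pdgfra, Per1, Per3, Pvalb, Rbp4, Rgs5, Top2a, Trem2 and Zic1. The members and lists were chosen with earlier results of these data known.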

Additional observations from a re-analysis of the deposited data

Results flagged for a closer look

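In a group of 5, a library was singled out where its distance to the nearest other library was more than 0.71 of the whole range, judged on log2(normalized count + 1) for genes. Of 142 named genes with normalized counts, 13 met this. Chance flags about 1 in 20 groups, but many of the named genes were picked by their spread or after their values were seen. The 13 therefore cannot be set against that rate, and these genes are not independent of each other. Library 1 was the one apart in 7 and library 5 in 4.

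In library 1, Fabp4 was high at 24181 TPM, Car3 at 19300 TPM and Rgs5 at 97.8 TPM. Nnat was low there at 126 TPM, and so were the clock genes Arntl at 1.77, Npas2 at 0.845 and Clock at 4.71 TPM. In library 5, the lipid synthesis genes Acly, Acaca and Pcx were low at 126, 160 and 81.4 TPM, and Col1a1 was high at 269 TPM. Ndst1 was listed at 0 TPM in library 2. Abcf1 stood apart in library 4 in normalized counts alone, whose extremes differed by 3.56%. Its TPM there, 36.7, was within the range of the other libraries, and library 1 had the lowest, 32.5. The normalized count total was highest in library 1, at 24449900.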

How the results depend on the processing

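No paired analysis was possible because the values come from 1 group and no test. Of 130 alternative values, 106 stayed within the limits set (1.5 times for a count, 1 SD for a share). The number of variable genes was 1795 and 1236 when means of at least 50 and 100 were asked for, 5531 with no minimum and 1617 on log2(TPM + 1); leaving out 1 library gave 2322 to 3019. Steady genes numbered 2602 to 3650 with 1 library left out. The genes that hold 50% of TPM numbered 341 without the mitochondrial genes and 514 by normalized counts, beside 95. By normalized counts the mitochondrial share was 9.55%, the ribosomal 2.36%, fatty acid synthesis 4.26% and red cell 0.296%. Without mitochondrial genes the latter 3 were 8.46%, 2.07% and 1.42% of TPM. With 1 library left out, variable members ranged from 6 to 10 for smooth muscle, 6 to 15 for fatty acid synthesis, 8 to 14 for the clock, 2 to 10 for mesothelium, 0 to 1 for endothelium and 0 to 1 for reference genes. On log2(TPM + 1), 2 macrophage markers and 2 reference genes were variable. Genes were also ranked by the squared SD over mean of unlogged normalized counts, less counting noise. Of the 15 genes with the highest SD on the log2 scale 3 were among the 15 highest there, and 0 of the 15 lowest were among the 15 lowest. That ranking changed the scale as well as taking off counting noise, and the 2 changes were not separated. Counts without genes at 0, shares of 1000000 TPM and all lists without each library were added after seeing the data. Depth in reads is unknown, so counting noise is taken from normalized counts.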

Other observations

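A small group of genes was high in libraries 2 and 4 alone. Oxtr, the oxytocin receptor, was at 13.8, 112, 23.9, 96.2 and 22.0 TPM, Greb1, an oestrogen-responsive gene, at 0.201, 2.18, 0.385, 5.30 and 0.914, and Mmd2 at 0.311, 22.3, 0.774, 6.00 and 0.588. Ucp1 was also among them. In all 26 genes had both libraries at least 1 log2 above the other 3, 7 of them averaging 100 normalized counts or more; for the pair 4 and 5 the counts were 112 and 48, and for the other 8 pairs 8 to 29 and 0 to 4. Pgr, the progesterone receptor, was at 0.555, 3.01, 1.37, 5.18 and 3.05 TPM, high in library 5 as well. These genes were named after their values were seen.

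The labels do not give sex. The Y-linked genes Ddx3y, Eif2s3y, Usp9y, Zfy1 and Sry were listed at 0 in all 5 libraries, while Uty was between 0.290 and 0.678 TPM and Kdm5d between 0.0673 and 0.182. Esr1 was at 26.8 ± 5.57 TPM (SD, n = 5), and Cyp19a1 was at 0 in all 5.

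Libraries whose titles open with the same number had correlations of 0.958 (1 and 2) and 0.967 (3 and 4), beside 0.924 to 0.961 for the other 8 pairs.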
